A study of Mus musculus with 4 samples.

Results

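Cluster 13 is 1 of 17 chromatin states that the authors defined on the joint accessibility data of PB3, a line of mouse mammary tumor cells. Its members were taken as every cell with cluster number 13 in the deposited cell table, which gave 1153 of 43782 cells. Of these, 1057 came from the eribulin scATAC library, 86 from the eribulin multiome library, 7 from the untreated scATAC library and 3 from the untreated multiome library. Eribulin libraries thus supplied 99.1% of the cluster, which was 14th in size among the 17. No gene-level or peak-level value was used here, so that the cluster could not be set against cell type markers and is called by its number.

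The eribulin cells had been exposed to 500 nM of the drug for 72 h and left to recover for 48 h, in 4 rounds. The untreated cells were the same line in the same medium without drug. Each condition was profiled once by single-cell ATAC-seq (scATAC, run 1) and once by the chromatin side of a multiome assay on single nuclei (run 3), which gives 1 library per group. The libraries held 127710435 cut sites in peaks (eribulin scATAC), 49446970 (eribulin multiome), 84615925 (untreated scATAC) and 61629245 (untreated multiome). No test between groups was made, because cells of 1 library are not replicates and 2 pairs of libraries cannot give an exact two-sided p below 0.5. The labels do not say whether the runs drew on one treated culture, so that the second protocol may repeat the assay alone. Brackets after a share hold exact 95% intervals (Clopper-Pearson). Those after a ratio hold 95% intervals that treat the counts as Poisson counts, and they are only approximate where the shares are large. Both kinds cover counting error only and not the difference between cultures.

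Eribulin binds the ends of microtubules and stops their growth, which blocks cell division and alters cell shape. In ATAC-seq the Tn5 transposase cuts DNA that is not wrapped around nucleosomes or packed away, so that the pattern of cut sites in a cell marks its open regulatory regions. Cells that share such a pattern form a cluster, and tumor cells of 1 line can occupy several. A lentiviral barcode, a DNA tag written into the genome at infection and passed on at division, shows which of these cells descend from the same ancestor.

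The barcodes found in cluster 13 are designed tags of 48 bases, printed here because the lineage makeup of the cluster turns on them. Each joins a short part of 14 bases and a long part of 30 bases through the linker in capitals (bases 15 to 18), and is named by the numbers of both parts. The 5 found in the cluster, from the authors' list of 10000000, read 5′ to 3′:
76-49517: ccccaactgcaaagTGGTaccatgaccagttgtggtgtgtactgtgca
6-93034: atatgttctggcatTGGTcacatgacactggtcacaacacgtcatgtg
95-33662: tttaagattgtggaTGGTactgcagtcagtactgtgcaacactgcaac
89-6288: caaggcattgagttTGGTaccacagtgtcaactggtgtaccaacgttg
55-23349: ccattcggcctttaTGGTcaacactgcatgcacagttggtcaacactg
Any pair of them differed at 27 to 40 of the 48 bases. Only 76-49517 reached the minimum of 3 cells in cluster 13 that was set for naming a barcode. The other 4, with 1 or 2 cells per library, are named because their counts are that small, after their values were seen.

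A single lineage, 76-49517, made up most of the barcoded part of cluster 13 in the eribulin multiome library. Of the 86 cells there, 21 had 1 called barcode, and 16 of these 21 (76.2%; 52.8 to 91.8) carried 76-49517. Among the barcoded cells of the other clusters of that library 422 of 1370 (30.8%; 28.4 to 33.3) carried it, a ratio of 2.47 (1.40 to 4.06). Both shares are large, so that the interval of this ratio is only approximate. The barcode was picked by its count in cluster 13, and this ratio and its interval do not allow for that choice. The remaining 5 barcoded cells of cluster 13 were 2 of lineage 6-93034, 2 of 95-33662 and 1 of 89-6288. The lineage 6-93034, which had 401 of the 1370 barcoded cells outside the cluster (29.3%), had 9.52% inside it, a ratio of 0.325 whose interval (0.0393 to 1.18) included 1.

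Seen from the lineages, 16 of the 438 multiome cells with 76-49517 lay in cluster 13 (3.65%; 2.10 to 5.86). Of the 953 cells with any other barcode 5 lay there (0.525%), a ratio of 6.96 (2.44 to 24.3). By comparison, 2 of 403 cells with 6-93034 (0.496%; 0.0602 to 1.78) and 2 of 176 with 95-33662 (1.14%; 0.138 to 4.04) were in the cluster. The count of 0 of 146 for 55-23349 allows a share of up to 2.05% by the limit of 3 counts (exact interval up to 2.49%), and that of 0 of 81 for another barcode one of up to 3.70% (4.45%). The interval of 76-49517 thus lay above that of 6-93034. It overlapped the exact interval of 55-23349 between 2.10% and 2.49%, and also those of 95-33662 and of the barcode with 81 cells. The ratio of 6.96 and these intervals likewise do not allow for the choice of 76-49517 by its count in cluster 13.

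**Figure D1:**
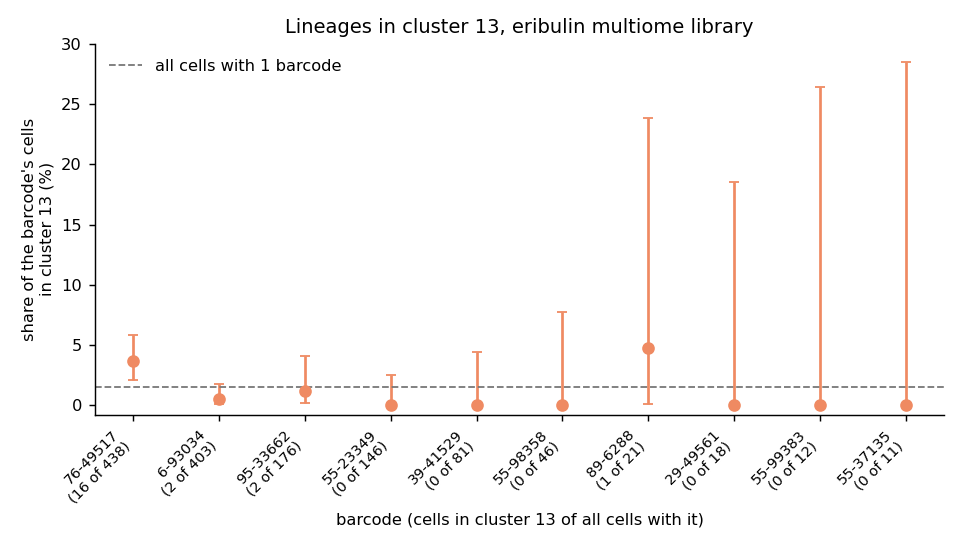
Share of the cells of each barcode that lay in cluster 13 (%, vertical axis) for the 10 barcodes with at least 10 cells in the eribulin multiome library, ordered by their number of cells. Points are shares, bars exact 95% intervals, and the dashed line the share of all cells with 1 barcode (1.51%). Barcode 76-49517 stands at 3.65% with its interval above the line, which does not allow for its choice by its count in the cluster. Barcodes of under 50 cells have wide intervals, among them 89-6288, which stands higher at 4.76% from 1 of 21 cells.

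The share of 76-49517 was higher in cluster 13 than in any other cluster with at least 50 cells of the eribulin multiome library. It was 41.9% (38.6 to 45.2; 367 of 876) in cluster 0, the largest of the library, 33.3% (21 of 63) in cluster 15 and 16.7% (11 of 66) in cluster 11. In cluster 10 it was 6.02% (5 of 83) and in cluster 12 it was 3.77% (9 of 239). The interval of cluster 13 (from 52.8%) lay above those of these 5 clusters, whose highest upper end was 46.3%. It does not allow for the choice of the barcode by its count in cluster 13. Even so, cluster 0 held 83.8% of the cells of this lineage, so that cluster 13 was a minor state within it.

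How the barcodes were written bears on these counts, because some names in this library carry only numbers and others the sequence as well. Among cells named by numbers 14 of 17 in cluster 13 (82.4%) and 360 of 1002 in the rest (35.9%) had 76-49517. Among cells named with a sequence it was 2 of 4 in cluster 13 and 62 of 368 in the rest (16.8%). The sequence given matched the authors' list in all 4 of these cells of cluster 13. Cluster 13 held more of the lineage than the rest in both forms, although 4 cells fix no share.

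The scATAC libraries could not show the lineage makeup, since few of their cells were called. In the eribulin scATAC library 4 of 1057 cells of cluster 13 had 1 called barcode (0.378%; 0.103 to 0.966), against 80 of 15667 in the rest (0.511%; 0.405 to 0.635). Of the 4 cells 2 carried 76-49517, 1 carried 55-23349 and 1 carried 6-93034. The rest of the library had 76-49517 in 23 of 80 called cells (28.8%), and the ratio of 1.74 had an approximate interval of 0.199 to 7.04. In cluster 12 of this library 3 of 5 called cells carried it (60.0%; 14.7 to 94.7), above the 50.0% (6.76 to 93.2) of cluster 13, so the multiome ranking was not repeated. In the untreated libraries no cell of cluster 13 had a called barcode, and both untreated multiome cells that carried 76-49517 lay in cluster 3.

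Barcodes were called in 24.4% (15.8 to 34.9) of the eribulin multiome cells of cluster 13 and in 17.1% (16.2 to 17.9) of the rest. Called cells were deeper than cells called negative in both sets, with medians of 6466 and 5217 cut sites in cluster 13 and 5939 and 3887 in the rest. With the rest weighted to the depth of cluster 13 its share of called cells was 17.6%, which lay inside the interval of cluster 13. No cell of cluster 13 was called with more than 1 barcode, against 62 of 8028 cells (0.772%) in the rest of that library. The count of 0 of 86 allows a share of up to 3.49% by the limit of 3 counts (exact interval up to 4.199%).

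The 16 cells of cluster 13 with 76-49517 were set against the other 70 multiome cells of the cluster in the fragment measures. Their nucleosome signal (mononucleosome-length fragments over shorter, nucleosome-free fragments) had a median of 0.671 (0.490 to 0.927 from lowest to highest) against 0.670 (0.360 to 0.990) in the other 70. Their cut sites had a median of 5997 (2855 to 15968) against 5578.5 (1025 to 26337). Their enrichment of cuts at transcription start sites (TSS enrichment) had a median of 5.50 (4.49 to 6.31) against 5.17 (3.45 to 7.92). The medians of nucleosome signal were nearly equal, while those of cut sites and TSS enrichment were higher in the 16 cells, with overlapping ranges. On the UMAP they centred at -2.13 and 1.17, against -2.20 and 1.46 for the other 70 and -3.47 and 2.90 for the 367 cells of the same lineage in cluster 0.

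Cluster 13 was far more frequent in the eribulin scATAC than in the eribulin multiome library. Its share was 6.32% (5.96 to 6.70) in eribulin scATAC, 1.06% (0.849 to 1.31) in eribulin multiome, 0.0748% (0.0301 to 0.154) in untreated scATAC and 0.0313% (0.00646 to 0.0915) in untreated multiome. Among eribulin cells the scATAC share was 5.96 times (4.78 to 7.52) the multiome share. Other clusters were split more strongly between these libraries. Clusters 1, 5 and 7 held 35.8%, 17.2% and 15.7% of eribulin scATAC cells but 0.234%, 0.111% and 0.123% of multiome cells. Cluster 0 held 0.771% and 78.5%. Clusters 10, 11, 12 and 15 were split less, with 9.17%, 8.11%, 5.56% and 0.831% of scATAC and 3.41%, 4.56%, 6.74% and 3.72% of multiome cells. Since clusters were drawn on all 4 libraries together, a cluster made mostly of 1 library may reflect that library, and protocol, run and culture cannot be told apart here.

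The excess in scATAC was present at each depth. Among cells with 1000 to 2500 cut sites 3.23% of eribulin scATAC and 0.230% of eribulin multiome cells were in the cluster, a ratio of 14.03 (5.71 to 44.7). From 5000 to 10000 cut sites the shares were 7.01% and 1.92%, a ratio of 3.66 (2.65 to 5.17), the smallest of the 5 depth ranges. From 10000 to 20000 the shares were 7.49% and 0.738%, a ratio of 10.1 (4.85 to 25.5). All 5 intervals lay above 1.

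Membership varied with depth in both eribulin libraries. With each library cut into 10 equal parts by cut sites per cell, the eribulin scATAC share was lowest in the shallowest part at 3.17% (2.38 to 4.12) and highest in the 8th at 8.49% (7.20 to 9.93), and 5.74% (4.67 to 6.96) in the deepest. In the eribulin multiome library the 4 shallowest parts had 0.123% to 0.493%, from 1 to 4 cells each. The 5th to the 8th part had 1.48% to 2.46%, and the 2 deepest had 0.740% and 0.739%, 6 cells each. Both libraries thus had fewer cluster 13 cells at the shallow end and again in the deepest part than in the 8th.

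**Figure D2:**
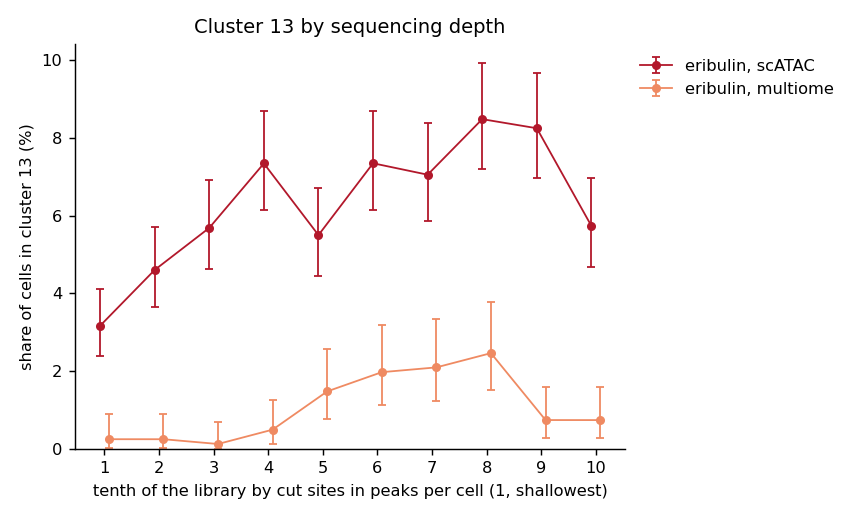
Share of cells in cluster 13 (%, vertical axis) in each of 10 equal parts of the eribulin scATAC and eribulin multiome libraries, ordered by cut sites in peaks per cell. Points are shares and bars exact 95% intervals; the scATAC share runs between 3.17% and 8.49% and the multiome share between 0.123% and 2.46%.

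Eribulin cells of cluster 13 were deeper than the other cells of their library. In eribulin scATAC the median was 6920 cut sites (quartiles 4445 and 10535) in cluster 13 and 5990 (3604.5 and 9805) in the rest, and 58.8% (55.7 to 61.7) of the cluster's cells lay above the median of the rest. In eribulin multiome it was 5669.5 (4264 and 7802.5) in cluster 13 and 4209 (2367 and 7434) in the rest, with 75.6% (65.1 to 84.2) above. Cluster 13 was 2nd in depth among the 9 clusters with at least 50 eribulin scATAC cells and 2nd among the 6 of the multiome library. The quartiles overlapped widely in both libraries. The few untreated cells of the cluster went the other way. Their medians were 5983 cut sites against 7441 in the rest of untreated scATAC (7 cells) and 2874 against 5218 in untreated multiome (3 cells).

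Very deep cells were not more frequent in cluster 13 than in the rest. In eribulin scATAC 5.01% (3.78 to 6.51) of cluster 13 and 5.78% of the rest had over 3 times the median depth of the library. In eribulin multiome these shares were 6.98% (2.60 to 14.6) and 10.4%. No doublet caller was run, since no matrix of peaks was analysed here.

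Peaks and genes detected followed the depth. The median number of peaks detected per cell was 6179 in cluster 13 and 5418 in the rest of eribulin scATAC, and 5194 and 3920 in eribulin multiome. With the rest weighted to the cluster's depth the medians of the rest became 6210 and 5162, and 49.5% (46.4 to 52.5) and 51.2% (40.1 to 62.1) of the cluster's cells lay above them. Gene activity, the authors' count per cell of cuts assigned to genes, had a median total of 6521 in cluster 13 and 5535 in the rest of eribulin scATAC, and 5569 and 4112 in eribulin multiome. At weighted depth the medians of the rest were 6397 and 5539, with 51.6% (48.5 to 54.6) and 50.0% (39.0 to 61.0) of cluster 13 above. Genes detected likewise stood at 51.9% and 52.3% above at weighted depth. At weighted depth the intervals of all 6 shares included 50%. They cover counting error only, and whether peaks or genes differ at equal depth was not tested. Gene activity per cut site, given next, stood at 63.2% (60.2 to 66.1) above at weighted depth in eribulin scATAC. In eribulin multiome it stood at 45.3% (34.6 to 56.5).

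Gene activity per cut site in peaks was slightly higher in cluster 13 than in the pooled rest in eribulin scATAC alone. In eribulin scATAC its median was 0.931 in cluster 13 and 0.921 in the rest, with 58.9% (55.9 to 61.9) of the cluster's cells above, and 63.2% at weighted depth. In eribulin multiome it was 0.965 in cluster 13 and 0.971 in the rest, with 46.5% (35.7 to 57.6) above. Against the 3 clusters nearest on the UMAP the scATAC share became 51.7% and the multiome share 27.9%. Cluster 13 was 5th from the top of 9 clusters in scATAC, which ran from 0.898 in cluster 1, the largest, to 1.06 in cluster 15. In multiome it was 5th of 6.

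The nucleosome signal of the eribulin cells of cluster 13 lay with that of the other eribulin cells, below the untreated medians. In scATAC its median was 0.778 (quartiles 0.715 and 0.843) in cluster 13 and 0.754 (0.690 and 0.822) in the rest of the eribulin library, and 99.6% (99.0 to 99.9) of the cluster's cells lay below the untreated median of 1.07. In multiome it was 0.670 (0.622 and 0.733) in cluster 13 and 0.668 (0.607 and 0.739) in the rest, with 96.5% (90.1 to 99.3) of the cluster's cells below the untreated median of 0.907. The change from the untreated median was -27.2% for cluster 13 in scATAC and -26.2% in multiome, against -29.4% and -26.3% for the rest of the eribulin libraries.

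Within the eribulin libraries the signal of cluster 13 stood in the middle of the clusters. In scATAC 59.6% (56.6 to 62.6) of its cells lay above the median of the rest, and 59.7% with the rest weighted to its depth. The 9 clusters ran from 0.724 in cluster 1 to 0.811 in cluster 5, with cluster 15 apart at 1.72, and cluster 13 was 5th from the top. In multiome 51.2% (40.1 to 62.1) lay above, and the 6 clusters ran from 0.652 to 0.678. The clusters next to it in scATAC were cluster 0 at 0.785 and cluster 7 at 0.754, both within its quartiles.

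**Figure D3:**
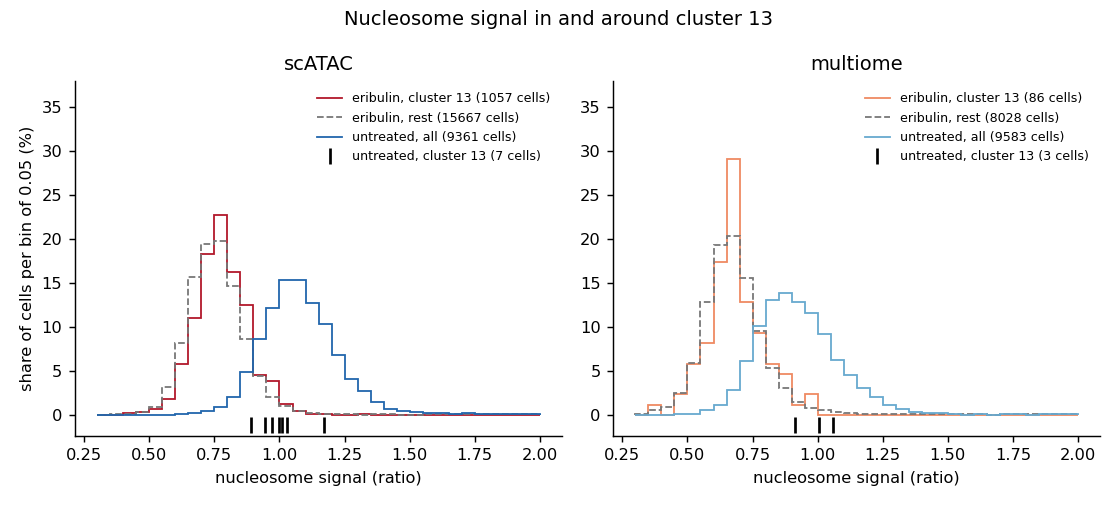
Distribution of the nucleosome signal (ratio, horizontal axis) as the share of cells per bin (%, vertical axis), for eribulin cells of cluster 13, other eribulin cells and all untreated cells, in scATAC (left) and multiome (right). Black ticks mark the untreated cells of cluster 13; the eribulin cells of cluster 13 overlie the other eribulin cells (medians 0.778 and 0.754 in scATAC), while the ticks lie at 0.891 to 1.17 in scATAC and 0.913 to 1.06 in multiome.

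TSS enrichment differed from the rest in opposite directions in the eribulin libraries. In scATAC its median was 4.97 (quartiles 4.56 and 5.43) in cluster 13 and 5.05 (4.60 and 5.54) in the rest, with 45.03% (42.0 to 48.1) of the cluster's cells above the median of the rest. In multiome it was 5.19 (4.80 and 5.72) in cluster 13 and 5.06 (4.65 and 5.52) in the rest, with 62.8% (51.7 to 73.0) above. Cluster 13 was 7th of 9 clusters in scATAC and highest of 6 in multiome. Weighting the rest to the cluster's depth left these shares at 44.5% and 62.8%. Against the 3 nearest clusters alone the scATAC share became 51.8%, on the other side of 50%.

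**Figure D4:**
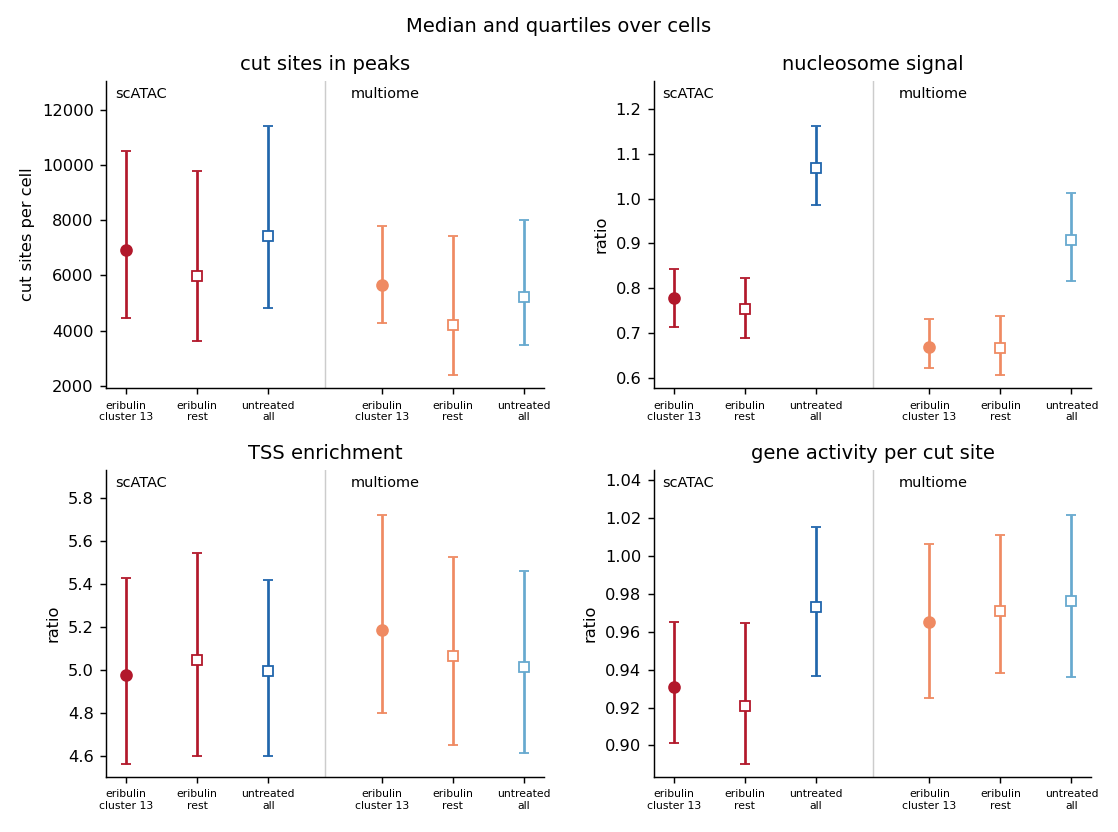
Medians (points) and quartiles (bars) over cells of cut sites in peaks per cell, nucleosome signal, TSS enrichment and gene activity per cut site (the last 3 as ratios), for eribulin cells of cluster 13, other eribulin cells and all untreated cells by protocol. Cluster 13 is deeper than the other eribulin cells in both protocols, and its nucleosome signal lies with them at 0.778 and 0.670, below the untreated medians of 1.07 and 0.907.

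The UMAP is a projection in which cells with similar open regions lie near each other. On it the centres of cluster 13 in the eribulin runs were nearly as far apart as the nearest centre of another cluster. The projection was made from the same peak components as the clusters, so that position describes the cluster and gives no second line of evidence. The median position was -1.31 and 1.82 (axes 1 and 2) in eribulin scATAC and -2.20 and 1.42 in eribulin multiome, 0.977 units apart. The nearest centre of another cluster was 1.12 units away in scATAC and 1.07 in multiome. Cells of cluster 13 lay a median of 1.28 and 1.63 units from its centre in these libraries. The centres of cluster 11 in these libraries were 3.14 units apart, those of cluster 10 were 1.12 apart and those of cluster 12 were 0.861 apart. The shift of cluster 13 between runs was thus between those of clusters 12 and 10, and smaller than that of cluster 11. Shifts of the other clusters were not computed.

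The neighbours of the cluster differed between the libraries. Its nearest centre in eribulin scATAC was that of cluster 11 at 1.12 units (0.631 between mean in place of median positions), followed by cluster 8 (12 cells of the library) at 1.196 and cluster 7 at 1.52. In eribulin multiome they were cluster 7 (10 cells) at 1.07, cluster 11 at 1.59 and cluster 2 (39 cells) at 1.81. The largest cluster of the multiome library, cluster 0, was 2.45 units away.

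**Figure D5:**
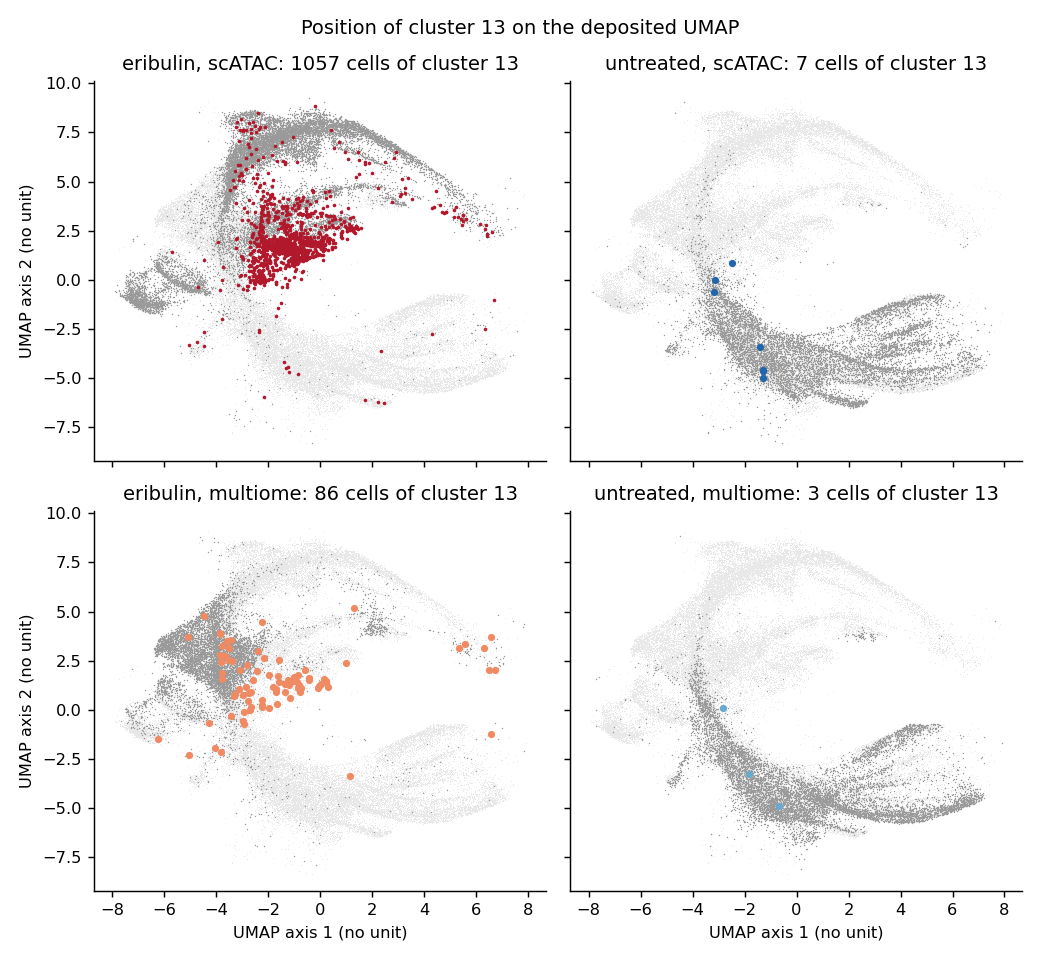
Deposited UMAP (both axes without unit) with the cells of cluster 13 in colour, other cells of the same library in dark grey and all cells in light grey; eribulin libraries are on the left and untreated ones on the right. The eribulin cells of cluster 13 gather around -1.31 and 1.82 in scATAC and -2.20 and 1.42 in multiome, and the few untreated ones are spread toward lower values of axis 2, 6 of 10 of them below -3.

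Cluster 13 was not a closed island. In eribulin scATAC 53.6% of the 30 nearest neighbours of its cells within the library were cluster 13 cells, 8.48 times its share of the library, and a further 17.7% were in cluster 7 and 15.7% in cluster 11. For the 9 clusters of at least 50 cells the share of neighbours in the own cluster ran from 7.11% in cluster 0 to 85.4% in cluster 12, with clusters 5 and 11 at 53.5% and 54.1%. In eribulin multiome 23.3% of the neighbours of cluster 13 cells were in cluster 13, 54.5% in cluster 0 and 12.8% in cluster 11. That own share was 22.0 times the share of the library, and close to the 23.4% of cluster 11, the next lowest of 6.

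Over 50% of the neighbours were cluster 13 cells for 569 of the 1057 scATAC cells (53.8%; 50.8 to 56.9) and for 20 of the 86 multiome cells (23.3%; 14.8 to 33.6). The other 488 scATAC cells were mostly surrounded by cluster 7 (220 cells) or cluster 11 (143 cells), and 53 of the other 66 multiome cells by cluster 0. In scATAC the 569 cells had a median TSS enrichment of 5.04 (quartiles 4.67 and 5.51) and the 488 a median of 4.91 (4.46 and 5.31). Their median nucleosome signals were 0.777 and 0.778, and their median cut sites 6623 and 7185.5. In multiome the 20 cells had a median TSS enrichment of 5.11 (quartiles 4.56 and 6.02) and the 66 a median of 5.25 (4.86 and 5.60). Their median nucleosome signals were 0.679 and 0.668. Their median cut sites were 6208.5 (4411 and 8154) and 5637 (4165 and 7446.5). By their medians the outer cells were thus deeper and lower in TSS enrichment in scATAC, and shallower and higher in it in multiome. The quartiles overlapped widely, and 20 multiome cells are too few to fix a direction.

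The multiome cells of cluster 13 lay among scATAC cells more than those of clusters 0, 10, 11 and 12 did. With both eribulin libraries thinned to 8114 cells, 59.1% of the neighbours of the 86 multiome cells were scATAC cells, against 17.7% for the rest of the multiome library. For clusters 10, 11 and 12 these shares were 42.4%, 26.3% and 32.7%, and for cluster 0, the largest, 14.5%. The share was not computed for the other multiome clusters. Of the neighbours of the 86 cells 33.9% were scATAC cells of cluster 13, 28.8% multiome cells of cluster 0, 10.3% scATAC cells of cluster 7 and few were multiome cells of cluster 13. The thinned cluster 13 was itself 85.6% scATAC, against 72.7%, 64.5% and 46.6% for clusters 10, 11 and 12, and the part of this makeup in the difference was not tested. Neighbours of the 1057 scATAC cells were multiome cells in 17.8%, against 17.4% for the rest of that library. In clusters 10, 11 and 12 these shares were 23.0%, 25.6% and 37.0%, and in cluster 1, the largest, 8.61%.

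Untreated cells were more frequent around cluster 13 than around other eribulin cells, though still few. With the libraries of a protocol thinned to equal numbers, 7.26% of the neighbours of the eribulin scATAC cells of cluster 13 were untreated cells, against 3.86% for the rest of the library and 6.73% for cluster 11. In multiome these shares were 16.6% for cluster 13, 7.22% for the rest and 13.6% for cluster 11. Most neighbours were untreated for 40 of the 1057 scATAC cells (3.78%) and 10 of the 86 multiome cells (11.6%), against 1.97% and 4.86% of the rest. For cluster 11 these shares were 4.72% and 7.57%, above cluster 13 in scATAC and below it in multiome.

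The 10 untreated cells of cluster 13 had nucleosome signals above those of most eribulin cells of the cluster. Their nucleosome signals were 0.944, 0.891, 0.999, 1.17, 1.03, 1.01 and 0.973 in scATAC and 1.06, 1.01 and 0.913 in multiome. Of the eribulin cells of cluster 13, 928 of 1057 in scATAC (87.8%; 85.7 to 89.7) and 83 of 86 in multiome (96.5%; 90.1 to 99.3) lay below the lowest untreated value of the cluster. Within the untreated scATAC library 6 of the 7 were below its median of 1.07, whereas none of the 3 multiome cells was below the untreated multiome median of 0.907. The ranges of the treatments overlapped in both protocols, since the highest eribulin values of cluster 13 were 1.32 and 0.990.

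Their place on the map was also mostly that of untreated cells. With libraries thinned to equal numbers, most neighbours were untreated cells for 6 of the 7 scATAC and 2 of the 3 multiome cells. In the full libraries of a protocol, 1 scATAC cell had 90.0% of its neighbours among eribulin cells and 56.7% in cluster 13. It had 4903 cut sites and the lowest nucleosome signal of the 7, 0.891. The other 9 cells had at most 10.0% of their neighbours in cluster 13, and 1 multiome cell had 60.0% among eribulin cells. Their depths ran from 1613 to 13764 cut sites in scATAC and from 2865 to 4556 in multiome, and none had a called barcode.

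Cell barcodes of the droplets were checked for sharing between libraries. Of the 1057 eribulin scATAC cells of cluster 13, 13 had a cell barcode also found in the untreated scATAC library (1.23%, against 1.29% of the rest), and 3 of the 86 multiome cells had one found in the untreated multiome library (3.49%, against 1.49%). None of these partners was in cluster 13, and none of the 10 untreated cells shared a cell barcode with an eribulin library.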

How the data were processed

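The values are those of a deposited table of cells with cluster numbers and lineage classes, a table of UMAP coordinates (a score without unit) and a list of barcode sequences. Per the series' design text, reads were processed with cellranger-atac 1.2.0 (run 1) and cellranger-arc 1.0.0 (run 3) on mm10, and peaks were filtered and clustered with Signac 1.1.1 on components 2 to 30 of a latent semantic indexing. Clusters were drawn at resolution 0.8, per the file headers. Cut sites, peaks, gene activity and genes are deposited as raw counts of each cell. Nucleosome signal and TSS enrichment, each a ratio, bear Signac's names in the deposited table. The labels and headers do not say how libraries were integrated or barcodes called.

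Shares, medians, quartiles, UMAP neighbours and ratios of shares were computed here per library in Python 3.11.15 with scipy 1.17.1, numpy 2.4.6 and pandas 2.3.3, and drawn with matplotlib 3.10.9. The weighted rest has the cluster's distribution over 10 equal parts by cut sites. Neighbour sets across libraries were thinned at random with a fixed seed. Ratio intervals are taken given the total count, which is exact for Poisson counts and approximate for large shares. A count of 0 allows 3 counts. The calculations were checked on simulated data. Barcodes are named by rule where they have at least 3 cells in cluster 13 of an eribulin library, and the others named were chosen after their values were seen; comparison clusters are the 3 nearest and the largest. No gene is named. The members and lists were chosen with earlier results of these data known. Alternatives were other sets of comparison cells, means, depth weighting, 10 or 100 neighbours, barcode name forms and a minimum depth.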

Additional observations from a re-analysis of the deposited data

Results flagged for a closer look

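TSS enrichment differed between cluster 13 and the other cells of the library in opposite directions in the eribulin libraries: the difference of medians was -0.0735 in scATAC (1057 cells) and 0.122 in multiome (86 cells). The medians of gene activity per cut site did likewise, with differences of 0.0104 in scATAC and -0.00569 in multiome. In multiome 46.5% (35.7 to 57.6) of the cluster's cells lay above the median of the rest for this measure. That interval included 50%, so that its multiome direction is not fixed. Each direction rests on 1 library, and whether the libraries differ was not tested. Against the 3 nearest clusters of the scATAC library, the share of cluster 13 cells above the median was 51.8% for TSS enrichment, on the other side of 50% than against the whole rest, and 51.7% for gene activity per cut site.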

How the results depend on the processing

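Of 124 alternative values, 88 stayed within the reported value's counting interval or spread over cells (for differences of means, kept its sign), 33 did not and 3 changed side. No paired analysis was possible because each group is 1 library, so that the groups compared share fewer than 2 replicate numbers, and no result comes from a test; eribulin and untreated values were set side by side within each protocol. The 3 that changed side were all in eribulin scATAC: peaks detected with the rest weighted to the cluster's depth, at 49.5% of cells above in place of 59.2%, and TSS enrichment against the 3 nearest clusters, at 51.8% in place of 45.03% for the nearest as such and 51.8% for the nearest of at least 50 cells. The first follows from removing depth; for TSS enrichment the cause was not tested.

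Shares of a library in cluster 13 moved to 6.80% for eribulin scATAC in the range of cut sites shared with untreated scATAC. Within the 9 clusters richer in eribulin cells they became 5.60% for untreated scATAC and 1.78% for untreated multiome, because that setting drops most untreated cells. Shares of eribulin scATAC cells of cluster 13 above the median of the largest cluster, cluster 1, were 52.9% for cut sites, 53.0% for peaks, 71.6% for nucleosome signal, 49.4% for TSS enrichment, 55.6% for the gene activity total and 77.2% for gene activity per cut site. Against the 3 nearest clusters the nucleosome signal stood at 55.3% and gene activity per cut site at 51.7%, and against the nearest of at least 50 cells at 55.2% and 51.8%. With the rest weighted to depth they were 51.6% for the gene activity total, 51.9% for genes detected and 63.2% for gene activity per cut site in scATAC. In multiome they were 51.2% for peaks, 50.0% for the gene activity total and 52.3% for genes detected. With only the cells that have over 50% of their neighbours in cluster 13, they were 54.8% for cut sites, 55.5% for peaks, 49.7% for TSS enrichment, 55.2% for the gene activity total, 55.4% for genes detected and 55.4% for gene activity per cut site in scATAC. In multiome, with 20 such cells, they were 85.0% for cut sites, 85.0% for peaks and 35.0% for gene activity per cut site. Against the 3 nearest multiome clusters that last measure stood at 27.9%. The difference of mean nucleosome signal in multiome was -0.00084 where the share was 51.2%. The distance to the centre of cluster 11 in scATAC was 0.631 between mean positions, in place of 1.12. With 100 neighbours the own share of neighbours was 49.3% in scATAC and 13.8% in multiome. Barcode 76-49517 had 50.0% of the 4 cells of cluster 13 named with a sequence. Its multiome ratio of 6.96 ranged from 4.81 to 8.05 over name forms and a minimum depth. No called scATAC cell of cluster 13 reached the median depth, so that this alternative gave no value there. The barcode results rest on 21 and 4 called cells of cluster 13 in eribulin multiome and scATAC. The comparisons restricted to the cluster's core, to the other eribulin clusters and to nearest clusters of at least 50 cells, and gene activity per cut site as a measure, were added after seeing the data.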
